A study of Homo sapiens with 12 samples.

Results

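The kinesin motor genes are the 43 rows of the deposited gene table whose symbol is KIF with a number and at most a letter A to C, KIFC1 to KIFC3, or CENPE, out of 59577 genes. They were chosen by symbol and not by their values. They fall into 13 mitotic kinesins, 17 kinesins of cargo transport, and 13 others that serve cilia, signalling or microtubule turnover or have no settled role. Their transcripts were compared in H1299, an established human line of non-small cell lung carcinoma labelled as lung adenocarcinoma, between 6 samples kept under 21% O2, 5% CO2 and 74% N2 (normoxia) and 6 samples kept for 24 h under 60% O2, 5% CO2 and 35% N2 (hyperoxia). No genetic change and no other agent is named in the labels. The design asks which transcripts raised oxygen alters in these cells. The labels do not say that replicates are separate cultures, so p-values reflect only the spread among samples, possibly of technical origin.

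Values are TPM, a transcript level scaled for gene length and for the total of each sample, so that levels of different genes can be set side by side. TPM keeps no read count and the depth of each sample is unknown; between 14275 and 14635 genes reached 1 TPM per sample. The keratins KRT8 and KRT18 were high (550.8 to 625.5 and 891 to 995.1 TPM over both groups), as was the mesenchymal filament gene VIM (2750 to 3523 TPM), while the epithelial genes EPCAM and CDH1 stayed at or below 0.28 and 0.13 TPM and the lung genes NKX2-1 and SFTPC at or below 0.78 and at 0 TPM. The leukocyte genes PTPRC and CD3E did not exceed 0.03 TPM, but CD68 lay at 39.1 to 50.8 TPM; the fibroblast genes COL1A2 and DCN did not exceed 0.38 TPM and COL1A1 reached 1.81 TPM, and of the endothelial genes PECAM1 reached 1.36 TPM.

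Kinesins are motor proteins that turn ATP hydrolysis into movement along microtubules or into disassembly of microtubule ends. Mitotic kinesins build the spindle, move chromosomes and divide the cell, and their genes are mostly transcribed late in the cell cycle. Most transport kinesins carry vesicles, organelles and RNA toward the cell periphery throughout the cycle. The transport class used here also holds the minus-end motors KIFC2 and KIFC3, and KIF21A, which slows microtubule growth. Many genes of late cell cycle phases carry a CHR (cell cycle genes homology region), a short element bound by the MuvB complex, with CCAAT boxes bound by NF-Y upstream of it. In bulk RNA, fewer cells in mitosis and less transcript per dividing cell cannot be told apart.

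The search of promoter sequence was planned as a description only, with no test. RefSeq windows that lie mostly upstream of the annotated start (GRCh38.p14) were held for 35 of the 43 genes. CHR letters were searched as TTTGAA or TTCGAA and the CCAAT box as CCAAT, both on either strand. The 100 bases just upstream of the start are shown for 5 mitotic kinesins with a CHR there, for KIF20A and KIF2C as mitotic kinesins without these CHR letters, and for KIF21A as a transport kinesin. All run 5′ to 3′ on the strand of the gene, with CHR letters (TTTGAA, or TTCAAA where it lies on the other strand) and CCAAT boxes (CCAAT, or ATTGG on the other strand) in capitals.
KIF23 (chr15:69414249-69414348, plus strand): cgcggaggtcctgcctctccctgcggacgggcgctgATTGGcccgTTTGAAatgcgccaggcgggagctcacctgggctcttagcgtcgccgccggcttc
KIF18A (chr11:28108157-28108256, minus strand): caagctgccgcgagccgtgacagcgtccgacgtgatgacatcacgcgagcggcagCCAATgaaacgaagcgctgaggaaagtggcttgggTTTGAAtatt
KIF11 (chr10:92593030-92593129, plus strand): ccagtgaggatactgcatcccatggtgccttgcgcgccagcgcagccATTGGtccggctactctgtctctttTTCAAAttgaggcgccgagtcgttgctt
KIF15 (chr3:44761694-44761793, plus strand): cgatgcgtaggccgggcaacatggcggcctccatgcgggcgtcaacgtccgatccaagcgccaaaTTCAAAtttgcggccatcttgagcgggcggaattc
KIF4A (chrX:70290004-70290103, plus strand): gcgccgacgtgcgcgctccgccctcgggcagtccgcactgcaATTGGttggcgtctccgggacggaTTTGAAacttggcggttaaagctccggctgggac
KIF20A (chr5:138179012-138179111, plus strand): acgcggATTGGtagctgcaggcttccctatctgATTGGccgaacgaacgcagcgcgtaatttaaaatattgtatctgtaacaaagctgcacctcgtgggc
KIF2C (chr1:44739737-44739836, plus strand): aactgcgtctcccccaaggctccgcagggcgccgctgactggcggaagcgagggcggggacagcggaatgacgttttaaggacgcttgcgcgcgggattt
KIF21A (chr12:39443121-39443220, minus strand): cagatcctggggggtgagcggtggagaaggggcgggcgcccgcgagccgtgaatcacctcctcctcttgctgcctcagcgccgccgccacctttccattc

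CHR letters were present in 10 of the 13 mitotic kinesin genes, in 1 of 12 transport kinesins with a window (KIF5B) and in 2 of 10 others (KIF24 and KIF4B). By window, 78.6% of the 14 mitotic windows held them, against 16.4% of all 35116 promoter windows in the table. A CCAAT box lay in 71.4% of the mitotic windows and in 34.6% of all windows. Both stood in the same window for 9 mitotic kinesins, 64.3% of their windows, against 6.38% of all windows. In KIF23, KIF18A, KIF11 and KIF4A the CCAAT box preceded the CHR, with first bases at -64 and -55, -45 and -10, -53 and -28, and -58 and -34 from the start. In KIF14, KIF18B and KIFC1 the CHR letters began at 1, 2 and 4 bases after the first transcribed base, also with CCAAT boxes upstream. KIF20A held 2 CCAAT boxes and neither CHR spelling, and the windows of CENPE and KIF2C held none of these letters. A match describes letters only, and no binding was measured.

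**Figure D1:**
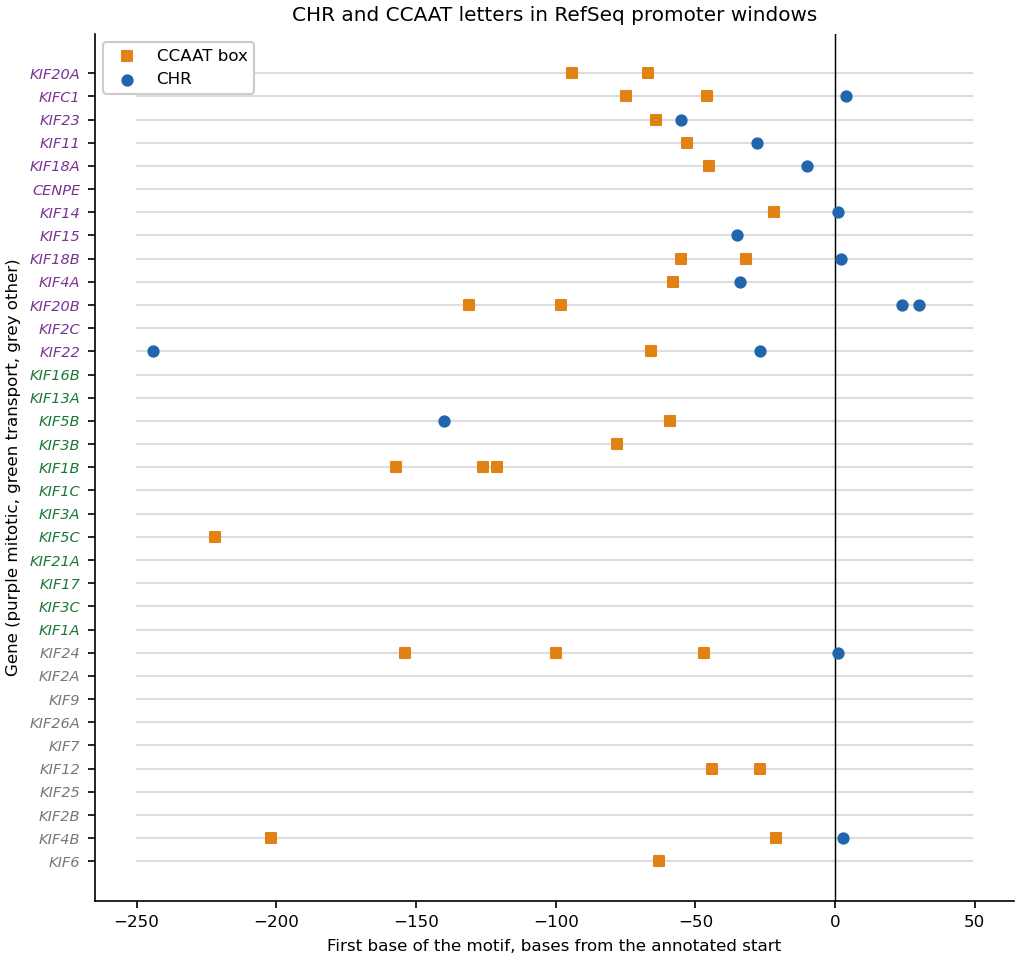
Position of CHR (blue circles) and CCAAT (orange squares) letters in the RefSeq promoter windows of 35 kinesin genes, with the first base of each match in bases from the annotated start on the x axis; each grey line is a window of a gene, and genes with several windows share a line. Most matches of the mitotic genes at the top lie within 100 bases before the start; 10 of these 13 genes hold a CHR, and of the transport kinesins KIF5B.

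Of the 43 kinesins, 34 reached a mean of 1 TPM over the 12 samples and were tested: all 13 mitotic, 15 of 17 transport and 6 of 13 other kinesins. At 60% oxygen 10 of the 13 mitotic kinesins fell, none rose and 3 did not pass the test (limma, Benjamini-Hochberg adjusted p below 0.05 over 14520 genes). Among all genes tested 5.63% were called lower and 11.7% higher. The median log2 fold change of the mitotic kinesins was -0.24, while that of all genes tested was 0.03. Of the 15 transport kinesins none fell and 2 rose (KIF21A and KIF3C), with a median of 0.03, and of the 6 others none was called, with a median of 0.05. In 7 mitotic kinesins every hyperoxia sample lay below every normoxia sample, as in 2.58% of all genes tested. The mitotic count fell to 5 (KIF20A, KIFC1, KIF23, KIF18A and CENPE) without normoxia replicates 4 to 6, at the same median of -0.24, and it was 8 with no filter on low values. Without those replicates single genes moved either way, KIF18B from -0.23 to -0.12 and CENPE from -0.25 to -0.33. Within normoxia, 9 of the 13 mitotic and 10 of the 15 tested transport kinesins were higher in replicates 4 to 6 than in 1 to 3. The median log2 differences were 0.04 and 0.05, and their cause was not tested.

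**Figure D2:**
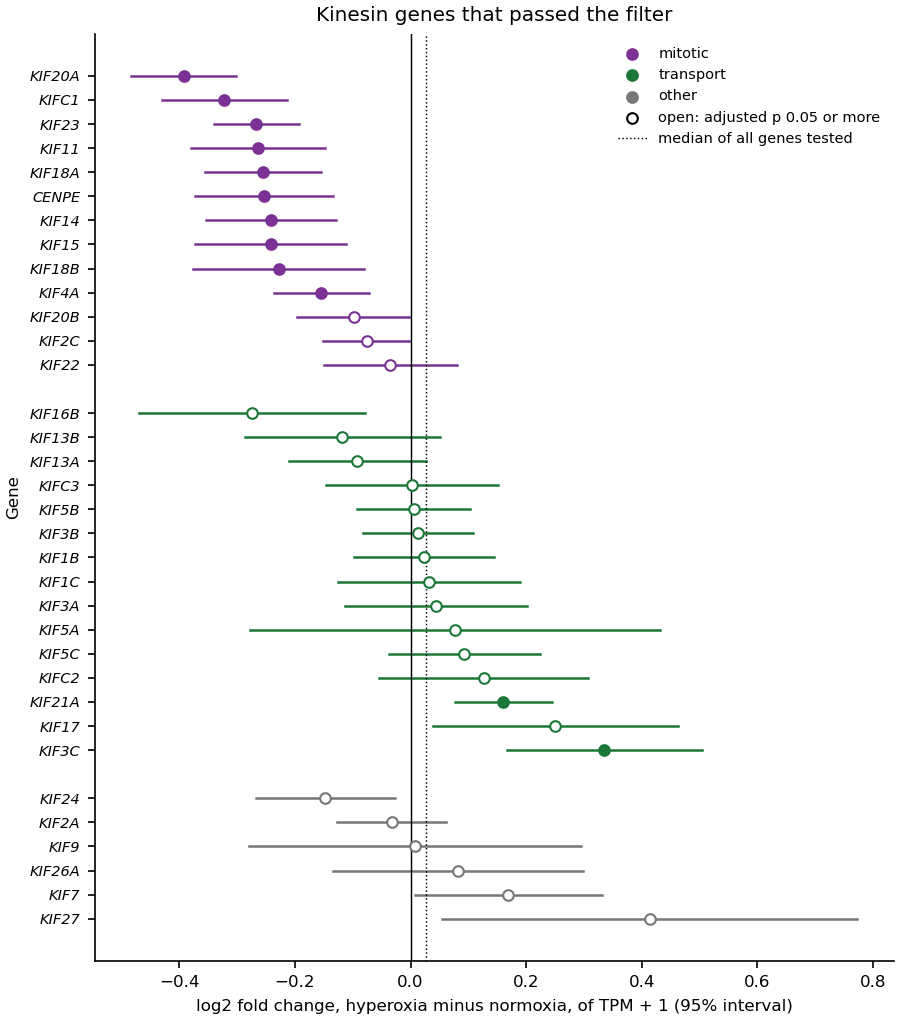
Log2 fold change of TPM + 1 (hyperoxia minus normoxia) with its 95% interval for the 34 tested kinesins, by class; filled points have an adjusted p below 0.05 and the dotted line is the median of all genes tested (0.03). All 13 mitotic kinesins lie left of that line, while the transport kinesins spread from -0.27 (KIF16B) to 0.34 (KIF3C).

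Among the kinesins of the last steps of division KIF20A, KIF23, KIF14 and KIF4A fell and KIF20B did not pass. KIF20A (ENSG00000112984), the motor that brings the Aurora B complex to the central spindle before cytokinesis, had a lowest, median and highest level of 71.7, 80.9 and 83.8 TPM in normoxia and 56.8, 61.5 and 63.1 TPM in hyperoxia. The groups did not overlap, and the mean fell by 24.1%. Its log2 fold change was -0.39 (with SE 0.04; limma, adjusted p by Benjamini-Hochberg = 5.17e-05). KIF23 (ENSG00000137807), the motor of the centralspindlin complex that organises the cleavage site, went from 96.3, 102 and 108.7 TPM to 82.7, 84.5 and 87.0 TPM. All 6 hyperoxia samples were below all normoxia samples here too, with a log2 fold change of -0.27 (with SE 0.03; limma, adjusted p by Benjamini-Hochberg = 2.25e-04). KIF14 (ENSG00000118193), which acts with citron kinase in cytokinesis, was the least abundant mitotic kinesin, with 13.13, 14.14 and 14.55 TPM in normoxia and 10.46, 11.85 and 12.74 TPM in hyperoxia. Its mean fell from 14.0 ± 0.51 to 11.7 ± 0.87 TPM (SD, n = 6 each), again without overlap.

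KIF4A (ENSG00000090889), a chromosome-bound kinesin that sets the length of the central spindle with PRC1, had 59.8, 61.6 and 66.5 TPM in normoxia and 53.5, 55.9 and 60.4 TPM in hyperoxia. Its mean fell from 62.3 ± 2.43 to 55.9 ± 2.48 TPM (SD, n = 6 per group; a log2 difference of -0.15 with SE 0.04; limma, adjusted p by Benjamini-Hochberg = 0.0145). In KIF4A 5 of 6 hyperoxia samples were below the lowest normoxia sample, and hyperoxia 1, at 60.4 TPM, was within the normoxia range. KIF4B is an intronless near-copy of KIF4A, listed at 0.56 to 0.94 TPM and not tested; reads could be split between the copies, so the level of KIF4B is uncertain. KIF20B (ENSG00000138182), a relative of KIF20A with a part in abscission, measured 25.2, 27.5 and 28.9 TPM in normoxia and 24.2, 25.1 and 28.1 TPM in hyperoxia. Hyperoxia 1 was the highest hyperoxia sample and lay within the normoxia range, while 4 hyperoxia samples were below it. The log2 fold change of KIF20B was -0.10 (SE 0.05, 95% interval -0.20 to -0.00041, limma, Benjamini-Hochberg adjusted p = 0.161).

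**Figure D3:**
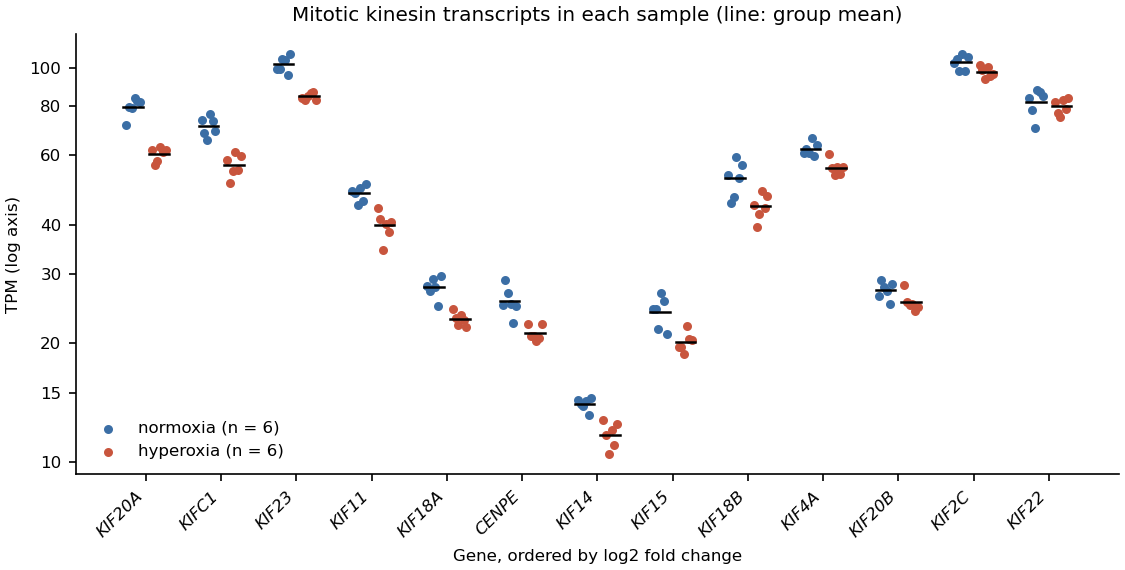
TPM (log axis) of the 13 mitotic kinesins in each of the 6 normoxia (blue) and 6 hyperoxia (red) samples, with black lines at the group means and genes ordered by log2 fold change. From KIF20A to KIF14 the colours do not overlap; from KIF15 to KIF22 they do.

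The motors that set spindle shape also fell. KIFC1 (ENSG00000237649), a minus-end motor that draws spindle poles together and clusters extra centrosomes, had 65.8, 71.3 and 76.5 TPM in normoxia and 51.1, 56.8 and 61.2 TPM in hyperoxia. The groups were apart, with a log2 fold change of -0.32 (with SE 0.05; limma, adjusted p by Benjamini-Hochberg = 9.61e-04), the next largest fall after KIF20A. KIF11 (ENSG00000138160), the motor that pushes spindle poles apart and a target of antimitotic drugs, had 44.96, 48.4 and 50.8 TPM in normoxia and 34.6, 40.4 and 44.1 TPM in hyperoxia. Hyperoxia 3 was its lowest sample, and the groups did not overlap (log2 fold change -0.26 with SE 0.05; limma, adjusted p by Benjamini-Hochberg = 0.00486). KIF15 (ENSG00000163808), which can keep spindles bipolar when KIF11 is blocked, had 21.2, 24.5 and 26.8 TPM in normoxia and 18.75, 19.97 and 22.18 TPM in hyperoxia. Its mean fell from 24.1 ± 2.17 to 20.1 ± 1.18 TPM (SD, n = 6 per group; a log2 difference of -0.24). Its groups overlapped through hyperoxia 4 at 22.2 TPM, and its call was lost with exact rank sums (adjusted p = 0.0559), with no filter (0.0704) and without normoxia replicates 4 to 6 (0.0602).

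Among the motors of chromosomes and microtubule ends, CENPE, KIF18A and KIF18B fell. CENPE (ENSG00000138778), the kinetochore motor that carries chromosomes along the spindle, had 22.5, 25.1 and 29.0 TPM in normoxia and 20.2, 20.9 and 22.4 TPM in hyperoxia. KIF18A (ENSG00000121621), which restrains chromosome oscillation at the ends of kinetochore microtubules, went from 24.9, 27.9 and 29.7 TPM to 21.97, 23.1 and 24.5 TPM. Both were without overlap between groups, though in CENPE the gap was narrow (22.48 against 22.44 TPM), and their log2 fold changes were -0.25 and -0.26 (SE 0.06 and 0.05, limma, Benjamini-Hochberg adjusted p = 0.0073 and 0.00257). KIF18B (ENSG00000186185), which shortens astral microtubules, had 45.4, 53.0 and 59.3 TPM in normoxia and 39.57, 44.45 and 48.69 TPM in hyperoxia. Its mean fell from 52.4 ± 5.41 to 44.5 ± 3.25 TPM (SD, n = 6 per group; a log2 difference of -0.23 with SE 0.07; limma, adjusted p by Benjamini-Hochberg = 0.0361). Only 4 of its hyperoxia samples were below the lowest normoxia sample, and its call was lost in 12 of 22 alternatives, among them 8 of the 12 that left out a sample (normoxia replicate 1, 4, 5 or 6 or hyperoxia replicate 1, 2, 3 or 5; adjusted p from 0.0576 to 0.0775). It was also lost without the mean-variance trend (limma, adjusted p = 0.0508) and with exact rank sums (adjusted p = 0.112). With no filter its adjusted p was 0.19 (limma). Without normoxia replicates 4 to 6 its log2 fold change was -0.12 (limma, adjusted p = 0.319).

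The mitotic kinesins that did not pass included the most abundant. KIF2C (ENSG00000142945), which takes apart microtubules to correct wrong attachments, had the highest mean of all kinesins, with 98.0, 104.1 and 108.5 TPM in normoxia and 94.0, 97.7 and 101.9 TPM in hyperoxia. Its log2 fold change was -0.08 (SE 0.03, 95% interval -0.15 to -0.000772, limma, Benjamini-Hochberg adjusted p = 0.159); median-of-ratios scaling of the samples made it -0.11 (adjusted p = 0.0237) and quantile normalisation -0.09 (0.047). KIF22 (ENSG00000079616), the chromosome arm motor that pushes chromosomes from the poles, had 70.3, 84.3 and 88.2 TPM in normoxia and 75.3, 80.4 and 83.9 TPM in hyperoxia. All its hyperoxia samples lay inside the normoxia range (log2 fold change -0.03, 95% interval -0.15 to 0.08, limma, Benjamini-Hochberg adjusted p = 0.709). CHR letters were held by 8 of the 10 called mitotic kinesins and 2 of the 3 not called (KIF20B and KIF22). With only 3 genes not called, these shares cannot show whether the letters go with a call, and this was not tested. In KIF20B the letters began 24 and 30 bases after the first transcribed base. KIF20A, with the largest fall, held neither of the spellings searched.

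Among transport kinesins the conventional kinesin heavy chains showed no called change. KIF5B (ENSG00000170759), the ubiquitous heavy chain and the most abundant transport kinesin, had 59.0, 65.4 and 68.3 TPM in normoxia and 59.8, 64.7 and 68.7 TPM in hyperoxia. Its log2 fold change was 0.01 with a 95% interval from -0.09 to 0.10. The heavy chains best known from neurons, KIF5A and KIF5C, measured 7.12 ± 2.34 and 7.38 ± 1.34 TPM, and 11.7 ± 1.07 and 12.5 ± 0.63 TPM (SD, n = 6 each). KIF1B and KIF1C, carriers of vesicles and mitochondria, measured 20.1 ± 1.44 and 20.4 ± 1.33 TPM, and 40.7 ± 4.68 and 41.5 ± 3.17 TPM; KIF1A, their neuronal relative, and KIF21B stayed at or below 0.36 and 0.25 TPM and were not tested.

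KIF3A, KIF3B and KIF3C are motor subunits of kinesins that serve cilia or vesicle transport, not all of them parts of a single complex, and only KIF3C was called. KIF3C (ENSG00000084731) had 11.2, 13.5 and 14.9 TPM in normoxia and 14.8, 17.2 and 18.5 TPM in hyperoxia. In KIF3C 5 of 6 hyperoxia samples were above the highest normoxia sample (log2 fold change 0.34 with SE 0.08; limma, adjusted p by Benjamini-Hochberg = 0.0109); the call was lost when low genes were kept (adjusted p = 0.0622) and without normoxia replicates 4 to 6 (0.0623). KIF3B measured 28.6 ± 1.54 and 28.9 ± 1.23 TPM and KIF3A 9.98 ± 1.19 and 10.3 ± 0.67 TPM (SD, n = 6 each). KIF21A (ENSG00000139116), which slows microtubule growth at the cell cortex, had 40.4, 42.6 and 45.8 TPM in normoxia and 46.0, 48.3 and 50.9 TPM in hyperoxia. It was the transport kinesin whose groups stood apart, with all 6 hyperoxia samples higher, as in 6.20% of all genes tested (log2 fold change 0.16 with SE 0.04; limma, adjusted p by Benjamini-Hochberg = 0.013). Its call was also lost without normoxia replicates 4 to 6 (adjusted p = 0.0625).

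KIF16B (ENSG00000089177), a motor of early endosomes, had the most negative log2 fold change among transport kinesins, with 5.87, 6.01 and 7.32 TPM in normoxia and 4.32, 4.66 and 6.30 TPM in hyperoxia. Hyperoxia 1 and 6 overlapped with normoxia and the other 4 hyperoxia samples were below it (log2 fold change -0.27 with SE 0.09; limma, adjusted p by Benjamini-Hochberg = 0.0527). It passed with median-of-ratios scaling (adjusted p = 0.0213), quantile normalisation (0.0179), with the replicate block (0.0181), and without hyperoxia replicate 1 (0.0206) or 6 (0.0335). KIF17, a motor of dendrites and cilia, measured 4.19 ± 0.76 and 5.14 ± 0.54 TPM (SD, n = 6 per group; a log2 difference of 0.25, limma, Benjamini-Hochberg adjusted p = 0.0997) and passed without normoxia replicate 4 (0.0279) or 4 to 6 (0.048). The vesicle carriers KIF13A and KIF13B had log2 fold changes of -0.09 and -0.12, and the minus-end motors KIFC2 and KIFC3 of 0.13 and 0.00; these 4 were not called.

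Of the other kinesins, KIF2A (ENSG00000068796), the microtubule-disassembling relative of KIF2C, was the most abundant, with 34.2, 37.6 and 39.97 TPM in normoxia and 35.2, 35.8 and 39.8 TPM in hyperoxia. KIF24, which restrains cilium assembly, measured 5.54 ± 0.23 and 4.90 ± 0.29 TPM (SD, n = 6 per group; a log2 difference of -0.15, limma, Benjamini-Hochberg adjusted p = 0.0888) and passed with median-of-ratios scaling (0.0397) and without the mean-variance trend (0.0342). KIF7, a regulator of Hedgehog signalling at the cilium tip, had a log2 fold change of 0.17, and its relative KIF27 of 0.41 with a wide interval from 0.05 to 0.77; KIF27 ranged from 4.09 to 7.87 TPM in normoxia and from 5.96 to 12.9 TPM in hyperoxia (limma, Benjamini-Hochberg adjusted p = 0.108, and 0.0434 without hyperoxia replicate 3). KIF9 of motile cilia was spread widely in normoxia, with an SD of 3.70 around 13.9 TPM (n = 6), and KIF26A, an atypical kinesin, was at 0.80 to 1.38 TPM over all samples. KIF6 and KIF2B were listed at 0 in all 12 samples, and KIF12, KIF19, KIF25 and KIF26B did not exceed 0.56 TPM. Antisense genes to KIF1C, KIF5C, KIF9, KIF25 and KIF26B stand in the same table, and whether counting used strand is not given in the sources used here.

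Relatives that share a KIF number were compared directly, a test chosen after the values were seen: for the 11 pairs with both genes tested, the log2 ratio of their TPM + 1 was compared between groups by exact permutation of the 12 labels (two-sided, 924 arrangements), which can give no p below 0.00216. The ratio of KIF20A to KIF20B went from 1.51 ± 0.10 to 1.22 ± 0.09 (SD, n = 6 each), a change of -0.29 on the log2 scale (exact permutation p = 0.00216, adjusted over the pairs p = 0.0119). The ratio of KIF3B to KIF3C went from 1.06 ± 0.12 to 0.74 ± 0.11 (change -0.32, exact permutation p = 0.00216, adjusted p = 0.0119). In both pairs the ratios of the groups did not overlap. The ratio of KIF3A to KIF3C changed by -0.29 (exact permutation p = 0.0281, adjusted p = 0.103, and 0.0238 without normoxia replicate 2), and the other 8 pairs, KIF18A with KIF18B and KIF2A with KIF2C among them, had adjusted p-values from 0.327 to 0.952. Without normoxia replicates 4 to 6 the smallest adjusted p of the exact permutation was 0.131, and neither ratio was called. Fewer samples leave fewer arrangements, which raises the smallest possible p. A call there would have needed several pairs at that floor together, so the loss of both calls says little about these ratios.

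Summed over genes, the 13 mitotic kinesins had 691.3, 711.5 and 758.2 TPM (lowest, median, highest) in normoxia and 595.3, 622 and 644.5 TPM in hyperoxia. The lowest normoxia sample was above the highest hyperoxia sample. The hyperoxia mean was 86.4% ± 2.88 (SD, n = 6) of the normoxia mean. The 17 transport kinesins summed to between 299.1 and 351.7 TPM in normoxia and between 316 and 354.6 TPM in hyperoxia, with wide overlap. Mitotic kinesins made up 62.9% to 65.5% of all kinesin TPM in normoxia and 59.4% to 61.1% in hyperoxia. Within groups, the deviations of mitotic kinesins from their group means correlated with a median r of 0.33 over 78 gene pairs. Those of transport kinesins correlated with a median r of 0.42 over 105 pairs, and those of mitotic with transport kinesins with 0.30 over 195 pairs. All pairs share the same 12 samples, so these are descriptions.

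**Figure D4:**
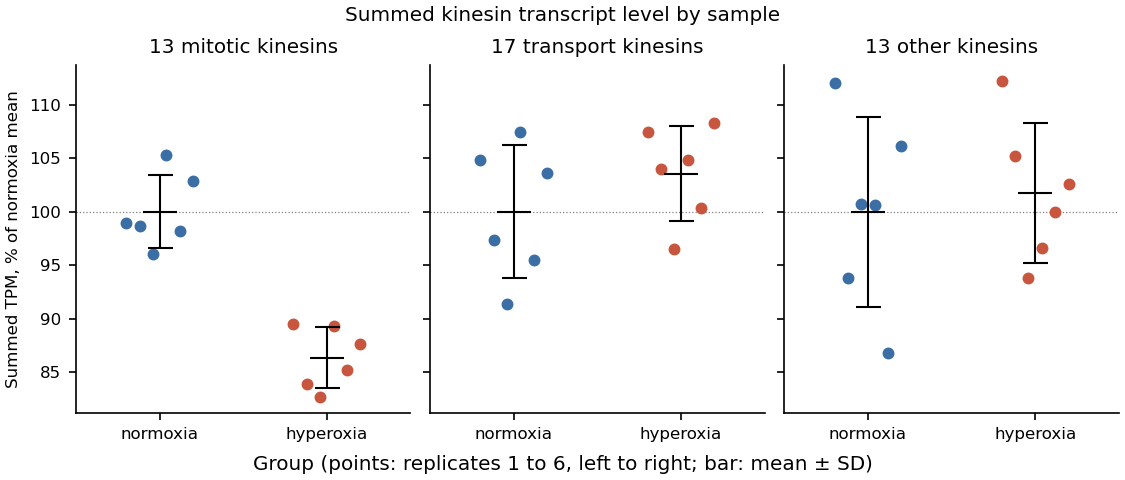
Summed TPM of the mitotic, transport and other kinesins in each sample, as a percentage of the normoxia mean of that class; points are replicates 1 to 6, bars are mean ± SD (n = 6), and the y axis does not start at 0. Mitotic sums lie between 96.0% and 105.3% in normoxia and between 82.7% and 89.5% in hyperoxia, while the transport and other sums overlap between groups.

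Transcripts of proteins that mitotic kinesins work with were mostly lower. Of 15 listed partners 12 fell, none rose and 3 did not pass (11 of 14 fell without BUB1B, whose deposited values disagree with each other). RACGAP1, the partner of KIF23 in centralspindlin, fell from 130.8 ± 5.63 to 103.8 ± 3.33 TPM (SD, n = 6 per group; a log2 difference of -0.33), and PRC1, the partner of KIF4A, from 128 ± 7.85 to 105 ± 7.78 TPM (-0.28). AURKB, the kinase carried by KIF20A, fell by 0.20 on the log2 scale and its complex members CDCA8, BIRC5 and INCENP by 0.33, 0.25 and 0.26. TPX2, a spindle protein that binds KIF11, fell by 0.23, the spindle kinase AURKA by 0.37 and the kinetochore protein NDC80 by 0.34. BUB1B had a log2 fold change of -3.08, which rests on the values that disagree. Of 11 tubulins, the subunits of the microtubule track, 4 fell and none rose, with TUBB4B at -0.29, TUBA1C at -0.22 and TUBB at -0.14.

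Few partners of transport kinesins were called, and the calls for dynein, the motor of the opposite direction, were mostly higher. Of 17 kinesin light chains, adaptors and cargo receptors 1 rose, KIFBP, a kinesin-binding protein, at 0.14, and 1 fell, TRAK1, a mitochondrial adaptor, at -0.15, with a median of 0.02. KIFAP3, which binds the KIF3 motor subunits, measured 8.26 ± 0.50 and 7.38 ± 1.06 TPM (SD, n = 6 per group) and was not called. Of 27 subunits and adaptors of dynein, the minus-end motor, and its cofactor dynactin, 6 rose and 1 fell, with a median of 0.09. The adaptor BICD1 rose from 24.6 ± 1.12 to 32.4 ± 2.58 TPM (SD, n = 6 per group; a log2 difference of 0.38), the dynein regulator NDEL1 rose by 0.22, and the dynactin subunit ACTR1B fell by 0.35 on the log2 scale. These lists are described by their counts and medians beside the 5.63% lower and 11.7% higher calls of all genes tested, with no test of the lists.

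The authors' deposited table gives its own log2 fold change and adjusted p per gene. Of the 13 mitotic kinesins, 12 were lower at an adjusted p below 0.05, all but KIF22, in the authors' deposited table, with a median log2 fold change of -0.27. By the same p, 14.3% of the 14520 genes with a mean of at least 1 TPM were lower and 15.7% higher. Of the 15 transport kinesins among those genes, 3 were lower and 5 higher in the authors' deposited table. No kinesin carries the deposited call, whose smallest change among 357 called genes was 1.00 on the log2 scale. The authors' deposited table gives KIF20A -0.44 and KIFC1 -0.36, close to the log2 ratios of mean TPM of -0.40 and -0.33. For KIF27 the log2 ratio of mean TPM was 0.47, while the authors' deposited table gives 0.02 (adjusted p = 0.902). KIF3C and KIF15 also differed, with 0.35 and -0.26 from mean TPM against 0.17 and -0.41 in the authors' deposited table; over 14443 genes tested whose deposited values agree, the difference had a median of 0.02 with 5th and 95th percentiles of -0.11 and 0.18.

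**Figure D5:**
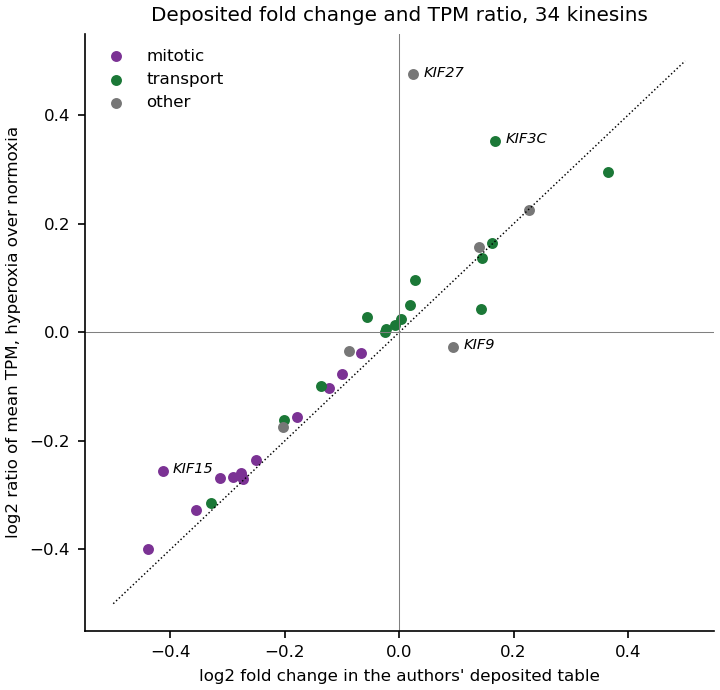
Log2 fold change of the 34 tested kinesins in the authors' deposited table (x axis) against the log2 ratio of mean TPM, hyperoxia over normoxia (y axis); the dotted line marks equal values. Most genes lie just above the line, and the named KIF27, KIF3C, KIF15 and KIF9 lie more than 0.1 from it.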

How the data were processed

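RNA of 12 H1299 samples was sequenced. The submitters' processing notes name HTSeq 0.9.1 and edgeR 3.16.5, without their roles. No aligner, annotation or TPM calculation is given there, and the labels name 2 different library kits. The listed build is a mouse build although identifiers are human. Per the file headers, the authors deposited TPM per sample and group mean, and, per gene, a fold (ratio), its log2, and p-values. In 78 rows, none a kinesin, the deposited values disagree with each other (tolerance 1e-06 in log2 fold change, 1e-04 TPM in means); they stayed in the fit.

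Groups came from the titles. Genes with a mean of at least 1 TPM (14520 of 59577) were tested on log2(TPM + 1) with limma 3.58.1 in R 4.3.3 (lmFit, eBayes with trend, two-sided, Benjamini-Hochberg threshold 0.05); fold changes on this scale understate those of low genes. The step was tested on simulated data. TPM gives no depth, so counting intervals are not given. All kinesins that passed the test, the most abundant of each class and the mitotic kinesins that did not pass are named with their range; from other lists those among the 3 smallest p that passed the test, and binding partners. Other kinesins are named after their values were seen. The members and lists were chosen with earlier results of these data known. Alternatives were a pseudocount of 0.1, other filters, 2 scalings, no trend, exact rank sums, the replicate number as block, and leaving out samples or the disagreeing rows; the pair test was added after seeing the data. Python 3.11.15 and matplotlib 3.10.9 made the summaries and figures. The protein motif search that had been planned was not run, as no protein sequences were used here.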

Additional observations from a re-analysis of the deposited data

Results flagged for a closer look

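KIF20B in hyperoxia 1, at 28.1 TPM, stood apart from the other 5 hyperoxia samples, the nearest of which was at 25.4 TPM; the gap was 0.682 of the range of the group, above the limit for 6 samples. About 1 in 20 such groups would pass that limit by chance, and 68 groups of 6 were examined. Without hyperoxia replicate 1 the log2 fold change of KIF20B was -0.13 (limma, Benjamini-Hochberg adjusted p = 0.0631), against -0.10 with it.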

How the results depend on the processing

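The mitotic kinesins had 8 to 11 genes lower in the other alternatives and 5 without normoxia replicates 4 to 6. The lower and higher calls over all genes were 392 and 918 with no filter, 374 and 980 without normoxia replicates 4 to 6, and 1277 and 1279 with median-of-ratios scaling, against 818 and 1698; lower calls were 515 with exact rank sums. Transport kinesins had 1 gene higher with no filter and without normoxia replicates 4 to 6, and 1 lower (KIF16B) with either scaling and with the replicate block. Of the others KIF24 was lower (1) with median-of-ratios scaling and without the trend. Leaving out a sample at a time gave 602 to 937 lower and 1317 to 1563 higher calls over all genes, 9 to 10 mitotic kinesins lower at medians of -0.26 to -0.22, 0 to 1 transport kinesin lower and 2 to 3 higher at medians of -0.00488 (without normoxia replicate 3) to 0.05, and 0 to 1 other kinesin higher at medians of 0.02 to 0.10. The cause of these shifts was not tested. No kinesin with a call in any alternative reversed its direction. Over all genes tested, same-numbered samples did not deviate together (correlations from -0.117 to 0.0169, and 0 of 6 normoxia samples correlated best with their own number). In the kinesin sums, replicate 3 was lowest in both groups, for mitotic (691.3 and 595.3 TPM) and transport kinesins (299.1 and 316 TPM). The highest sums did not share a number. Whether the numbers pair samples is therefore not settled. With the block 10 mitotic and 2 transport kinesins were called as before, and KIF16B passed (limma, adjusted p = 0.0181). The unknown depth limits the reading of kinesins below 1 TPM.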
